A study of Drosophila melanogaster with 25 samples.

Results

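Nitric oxide synthase (*Nos*) and the subunits of the soluble guanylyl cyclase that responds to nitric oxide, *Gycalpha99B* and *Gycbeta100B*, were followed through clock neurons and dopaminergic neurons (DANs) of the *Drosophila* adult brain. These 3 genes of the 17087 in the table were chosen by name, and none of them was used to sort cells into classes or subtypes. *Nos* (FBgn0011676) lies on the minus strand of chromosome arm 2L (dm6, 10804274 to 10837511) and has 3 annotated transcripts. *Gycalpha99B* (FBgn0013972, 3R, 29682503 to 29685758) and *Gycbeta100B* (FBgn0013973, 3R, 31134392 to 31178278) lie on the plus strand and have 1 annotated transcript each. All are protein-coding. Exons of *Gycalpha99B* overlap those of *Obp99c*, and exons of *Gycbeta100B* those of *stops*, both on the opposite strand. These neighbours had 131 and 196 unique molecular identifiers (UMIs, which count each captured mRNA once) in all 10X Chromium cells, against 10775 of *Gycalpha99B* and 6466 of *Gycbeta100B*.

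Nitric oxide synthase makes nitric oxide from arginine and needs calmodulin and tetrahydrobiopterin to do so. The gas crosses membranes and binds the heme of soluble guanylyl cyclase, an enzyme built from an alpha and a beta subunit that makes the second messenger cGMP, so the cell that sends the signal and the cell that answers it can differ. In the fly brain nitric oxide is known as a cotransmitter of some DANs.

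EGFP-positive single neurons were sorted from adult brains of flies kept in light and dark cycles, and zeitgeber time (ZT) counts hours from lights on. In 23 CEL-seq2 libraries the EGFP was driven by TH-GAL4, which labels DANs but few of the PAM cluster, at ZT02, ZT06, ZT14, ZT18 and ZT22 (4 libraries each) and ZT10 (3 libraries). In 2 10X Chromium libraries, 1 at ZT02 and 1 at ZT14, flies carried TH-GAL4 together with Clk856-GAL4, a driver for clock neurons that misses most of the DN3 group. Nothing in the labels says that libraries came from separate flies, so p-values measure the spread between libraries or sums, which may be technical.

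The 10X Chromium libraries held 19834146 and 21264133 UMIs in 5184 cells (median 7156 per cell) and shared no cell barcode, and the CEL-seq2 libraries held 548486 to 1197517 UMIs in 1516 cells (median 9759.5). Clock cells had at least 3 UMIs of *tim*, *vri*, *Clk* and *cry* together and at most 1 of *Vmat*, and DANs had at least 5 UMIs of *Vmat* and 1 of *DAT*. In 10X Chromium this gave 1026 clock cells (509 at ZT02 and 517 at ZT14), 2196 DANs (1305 and 891) and 1962 cells of neither class, and in CEL-seq2 it gave 1155 DANs. The DAN marker list (*ple*, *Vmat*, *DAT* and *Ddc*) summed to 385 and 384 UMIs per 10000 (TP10K) in DANs at ZT02 and ZT14 and to 9.30 and 10.2 TP10K in clock cells. The clock list (*tim*, *vri*, *Clk*, *cry*, *Pdp1* and *per*) summed to 60.01 and 198 TP10K in clock cells and to 23.99 and 23.8 TP10K in DANs. Most of the clock list was *Pdp1*, at 103 TP10K in clock cells and 12.1 TP10K in DANs over both libraries, and the rule does not use it. The rule does not use *per* either, which went the other way. It was at 6.15 TP10K in clock cells (a UMI in 77.6%) and 11.4 TP10K in DANs (84.4%). Levels of the rule's own genes by time are not given here. In the paper *tim* mRNA cycles in clock clusters, so the cells that pass need not be the same mix at both times. Of 5 listed glial markers, 4 were detected in clock cells at ZT02 and 5 at ZT14, at 1.17 and 3.13 TP10K together, against 0.368 and 0.265 TP10K in DANs, and *repo*, which defines glia, had a UMI in 0.0975% of clock cells.

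Clock cells were then placed in subtypes by the first mark they passed, in the order *Pdf*, *CCHa1*, *Trissin*, *ITP*, *NPF*, *AstA*, *CNMa*, *Dh44*, *Dh31* and *AstC* (neuropeptides, at 10 TP10K or more, and 100 TP10K for *Pdf*) and *VGlut*, the vesicular glutamate transporter, at 3 UMIs. DANs were placed in the same way by *Ms*, *NPF*, *AstCC*, *Dh44*, *Dh31* and *AstC*, then by *VGlut* and the transcription factor and adhesion genes *Fer2*, *DIP-beta* and *bsh* at 3 UMIs. These marks name subtypes by a gene and not by an anatomical group. The glial markers of clock cells sat mostly in the 202 cells that passed no mark, at 10.4 TP10K over both libraries together. The marked clock cells had 0.485 TP10K at ZT02 and 0.400 at ZT14. Among them the *ITP* subtype had 2.46 TP10K over both libraries, and the *AstA* subtype 1.52 TP10K at ZT02. In the 202 cells the glial signal was mainly *Gs2*, *Eaat1* and *nrv2*, with no *repo* UMI. The hemocyte markers *Hml* and *He* summed to 5.47 TP10K in them, with *Hml* in 4.46% of cells, and *nSyb* was seen in 56.4%. These 202 cells held 14 of the 1346 clock *Nos* UMIs.

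*Nos*, the enzyme that makes the signal, was found in a minority of cells of both classes. Clock cells had 0.864 TP10K at ZT02 (95% interval 0.780 to 0.956) and 1.78 TP10K at ZT14 (1.67 to 1.90), and DANs had 0.960 (0.898 to 1.03) and 1.02 (0.948 to 1.09). Fewer cells with *Nos* and less *Nos* per cell cannot be told apart in such sums, so shares of cells are given too. A *Nos* UMI was seen in 24.2% and 31.5% of clock cells and in 19.6% and 25.4% of DANs. Intervals on levels are exact Poisson and those on shares exact Clopper-Pearson, and both cover counting error only. *Nos* was concentrated in few cells: the 121 clock cells (11.8%) with at least 3 *Nos* UMIs held 83.8% of the clock *Nos* UMIs, and 214 DANs (9.75%) held 79.1% of those of DANs. *Gycalpha99B* was spread widely instead, since the tenth of clock cells with the most UMIs of it held 30.1% of its UMIs, against 79.8% for *Nos*.

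In clock cells most *Nos* came from the *CNMa* subtype, which made up 12.6% of the cells and held 61.9% of the *Nos* UMIs. Its 56 cells at ZT02 had 102 *Nos* UMIs (2.06 TP10K, 1.68 to 2.50), and its 73 cells at ZT14 had 731 (9.75 TP10K, 9.05 to 10.5). The *AstA* subtype had 3.26 TP10K (2.75 to 3.85, 54 cells) and 2.08 TP10K (1.73 to 2.49, 52 cells). The *Dh31* subtype had 4.99 TP10K at ZT02 (4.05 to 6.09, 23 cells) and 0.551 TP10K at ZT14 (0.202 to 1.199, 12 cells). The *AstA* subtype held 19.6% of the clock *Nos* UMIs and the *Dh31* subtype 7.65%.

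**Figure D1:**
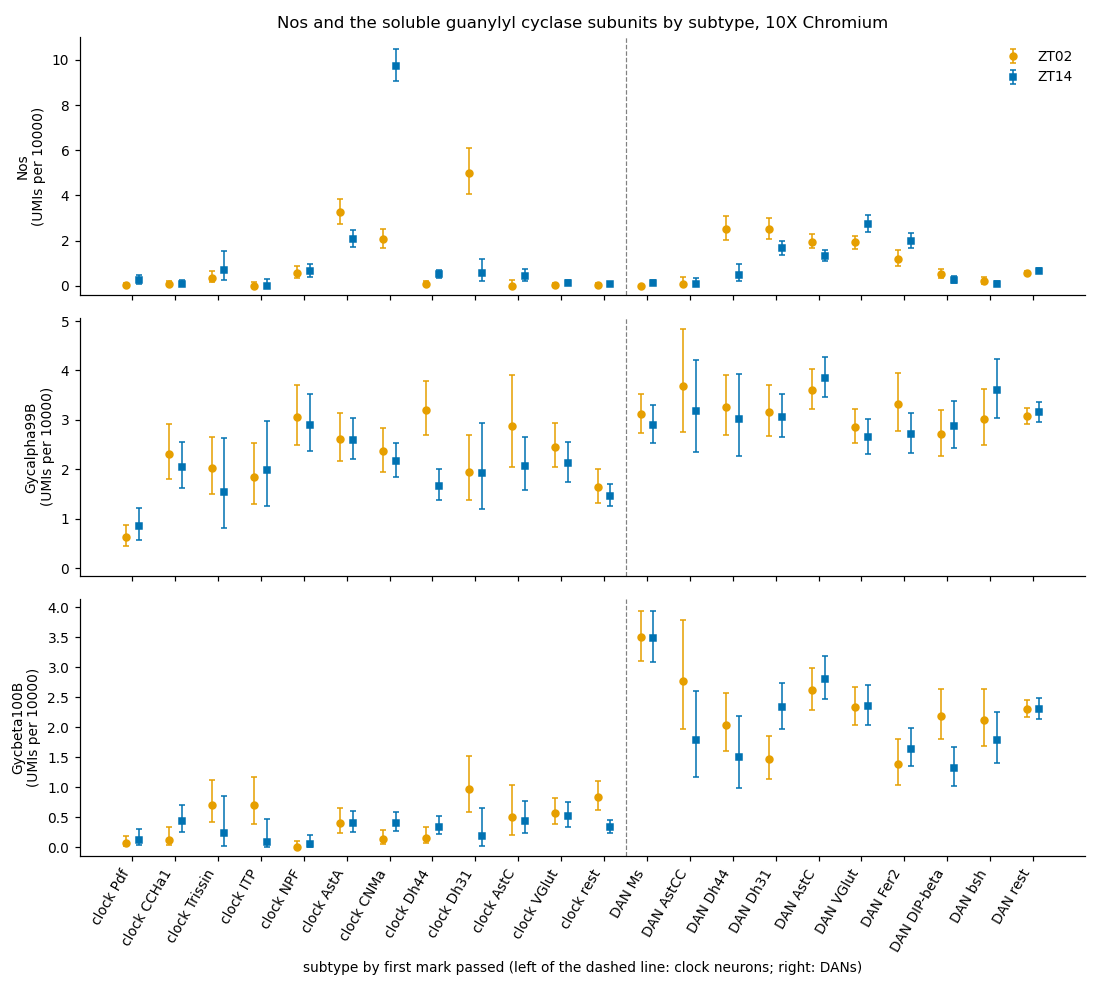
Levels of *Nos* (top), *Gycalpha99B* (middle) and *Gycbeta100B* (bottom) in UMIs per 10000 in each subtype of the 10X Chromium libraries, clock subtypes left of the dashed line and DAN subtypes right of it ("rest" are cells of the class that passed no mark). Points are the level over all cells of the subtype at ZT02 (circles) or ZT14 (squares) and bars are exact Poisson 95% intervals. *Nos* in the *CNMa* subtype at ZT14 (9.75 TP10K) stands above every other point, and *Gycbeta100B* is under 1 TP10K in every clock subtype and over 1 TP10K in every DAN subtype drawn.

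The other clock subtypes had little *Nos*. The *Trissin* subtype had 0.356 and 0.712 TP10K at ZT02 and ZT14, and the *NPF* subtype 0.559 and 0.642 TP10K. The *Pdf*, *CCHa1*, *Dh44*, *AstC* and *VGlut* subtypes and the cells of no mark were at 0 to 0.507 TP10K. In the *Dh44* subtype 20 of the 34 UMIs at ZT14 came from 1 cell, and in the *AstC* subtype 11 of 13 did. No *Nos* UMI was seen in the 27 cells of the *ITP* subtype, which allows up to 0.318 TP10K at ZT14 and 0.184 TP10K at ZT02, and bounds the *Nos* that free RNA gave in them. The *Pdf* subtype had 2 *Nos* UMIs in 44 cells and 8 in 24 cells. Each subtype was tested against the mean of the others on the log scale with edgeR's quasi-likelihood F test on UMI sums per subtype and library (5546 genes). A gene was called where its Benjamini-Hochberg adjusted p was below 0.05 and its fold change passed the minimum the study used. Over all pairs of a gene and a clock subtype 5.73% were called in either direction.

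*Nos* was higher in the *CNMa* subtype by 4.64 on the log2 scale (SE 0.53, adjusted p = 3.31e-05 by edgeR), and 4.4% of all genes were called higher there. It was higher in the *Dh31* subtype by 3.91 (SE 0.70, adjusted p = 0.00754 by edgeR, with 1.51% of genes called higher) and in the *AstA* subtype by 3.51 (SE 0.60, adjusted p = 0.00246 by edgeR, with 2.76% called higher). In the *Dh31* subtype 2 of 23 cells at ZT02 held 72 of the 97 *Nos* UMIs. A *CNMa* UMI was seen in 51.4% of the cells of this subtype, and a *Dh31* UMI in 97.7% of those of the *CNMa* subtype. Whether the 2 subtypes are separate kinds of cells was not tested. Because the *ITP* subtype had no *Nos* UMI, the log-scale mean had no lower limit and the sizes depend on edgeR's prior count. Without that subtype, an alternative chosen after seeing the data, the log2 differences were 4.03, 3.29 and 2.92 (adjusted p = 7.57e-05, 0.0165 and 0.00572 by edgeR), and over all alternatives the highest adjusted p was 7.57e-05, 0.0382 and 0.00572. For *Nos* none of the other 9 clock subtypes was called, in these fits or under the alternatives run.

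The number of *Nos* UMIs per cell separated the 2 libraries in the *CNMa* subtype. The median cell had 1 *Nos* UMI at ZT02 and 8 at ZT14, the highest cell had 9 and 35, and 31 cells at ZT14 but 0 at ZT02 had 10 or more. The cells overlapped at low counts, since some cells of both libraries had none. A *Nos* UMI was seen in 67.9% of these cells at ZT02 (54.0 to 79.7%) and in 93.2% at ZT14 (84.7 to 97.7%).

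**Figure D2:**
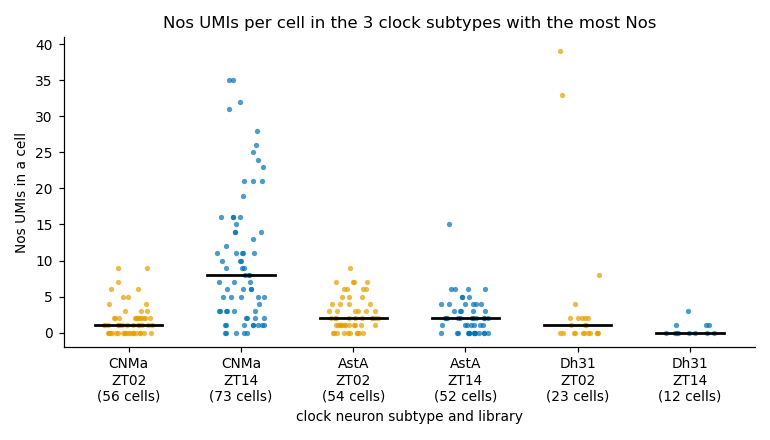
*Nos* UMIs in each cell of the clock subtypes with the most *Nos* (vertical axis, not normalized), by subtype and 10X Chromium library, with the median as a line. The medians are 1 and 8 UMIs in the *CNMa* subtype at ZT02 and ZT14, 2 and 2 in the *AstA* subtype and 1 and 0 in the *Dh31* subtype, where 2 cells at ZT02 hold 72 of 97 UMIs.

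Between the 10X Chromium libraries no test is possible, since ZT02 and ZT14 had 1 library each and time of day cannot be told apart from the library. The *Nos* level in the *CNMa* subtype at ZT14 was 4.73 times that at ZT02 (3.84 to 5.88), rank 67 of 4708 genes with at least 20 UMIs there, of which 7.35% were at least 2-fold higher at ZT14. With cells thinned to 1000 UMIs the ratio was 3.93, and with peptide minimums of 5 and 20 TP10K, chosen after seeing the data, it was 4.60 and 4.57. In the *AstA* subtype the ratio was 0.639 (0.497 to 0.819). In the *Dh31* subtype it was 0.110 (0.0395 to 0.249), but 2 cells held 74.2% of the UMIs at ZT02, and the ZT02 level without them was 1.62 TP10K, and 10.5% of genes were at least 2-fold lower there. Over all clock cells the ratio was 2.06 (1.83 to 2.33), with 8.81% of genes at least 2-fold higher, and in DANs it was 1.06 (0.961 to 1.16). The *CNMa* subtype held 102 of the 380 clock *Nos* UMIs at ZT02 and 731 of the 966 at ZT14.

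The same cells often carried several marks. Of the clock cells with at least 3 *Nos* UMIs at ZT14, 57 of 81 (70.4%) passed the *CNMa* mark and 56 (69.1%) the *Dh31* mark, whatever the order of the rule, against 1.41% and 6.78% of the 354 clock cells with no *Nos* UMI. At ZT02, 22 of 40 passed the *AstA* mark, 16 (40.0%) the *Dh31* mark and 12 (30.0%) the *CNMa* mark, against 2.59%, 18.7% and 4.66% of 386 cells with none. The median depth was 12683 UMIs in cells with at least 3 *Nos* UMIs and 9767.5 in those with none at ZT14, and 8704.5 and 8218 at ZT02, and its part in these shares was not tested. At both times the *CNMa*, *AstA* and *Dh31* marks were more frequent among *Nos*-rich clock cells than among clock cells with none.

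Among DANs of the 10X Chromium libraries *Nos* was higher in 5 subtypes and lower in 1, where 7.76% of all pairs of a gene and a subtype were called. The *VGlut* subtype had 1.92 TP10K at ZT02 (105 cells) and 2.73 at ZT14 (74 cells), and the log2 difference from the mean of the others was 2.21 (SE 0.28, adjusted p = 3.63e-06 by edgeR, 7.67% of 5857 genes called higher). The *Dh31* subtype had 2.53 and 1.66 TP10K (log2 2.05, SE 0.32, adjusted p = 0.000132 by edgeR, 3.96% called higher). The *AstC* subtype had 1.96 and 1.31 TP10K (log2 1.69, SE 0.31, adjusted p = 0.000706 by edgeR, 4.11% called higher). The *VGlut* subtype held 23.4% of the DAN *Nos* UMIs in 8.15% of the cells, the *AstC* subtype 16.5% and the *Dh31* subtype 13.1%.

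*Fer2*, a transcription factor gene needed for PAM neurons to form, marked further cells with *Nos*, at 1.21 and 1.99 TP10K (log2 1.72, SE 0.35, adjusted p = 0.00145 by edgeR, 5.82% called higher). A *Nos* UMI was seen in 40.4% and 48.2% of the cells of this subtype, a larger share than in the *VGlut* subtype (29.5% and 44.6%). The *Dh44* subtype had 2.51 TP10K at ZT02 and 0.502 at ZT14, in 15.2% and 15.8% of its cells (log2 1.75, SE 0.42, adjusted p = 0.0108 by edgeR, 3.31% called higher). The calls in the *Fer2* and *Dh44* subtypes were lost with stricter subtype marks (adjusted p = 0.0668 and 0.363 by edgeR).

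DANs with the neuropeptide gene *Ms* (myosuppressin) had next to no *Nos*. In the *Ms* subtype no *Nos* UMI was seen in 113 cells at ZT02 and 11 were seen in 70 cells at ZT14, of which 10 came from 1 cell (log2 -3.25, SE 0.84, adjusted p = 0.00738 by edgeR, 6.64% called lower). This call too was lost with stricter subtype marks (adjusted p = 0.0782 by edgeR). The *AstCC* subtype was at 0.0710 and 0.0662 TP10K and the *bsh* subtype at 0.205 and 0.0746 TP10K, and neither was called (adjusted p = 0.114 and 0.0998 by edgeR), although without the low-count filter both were called lower (adjusted p = 4.00e-06 and 9.57e-07 by edgeR).

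Counted without the order of the rule, *VGlut* at 3 UMIs was passed by 33.3% of the 114 DANs with at least 3 *Nos* UMIs at ZT02 and by 7.91% of the 1049 DANs with none. At ZT14 these shares were 31.0% of 100 and 7.22% of 665 cells. *Ms* went the other way, with 0 of 114 and 1 of 100 *Nos*-rich DANs against 10.8% and 10.2% of DANs with no *Nos* UMI, and the count of 0 allows a share of up to 3.18%. *Dh31* was passed by 15.8% and 12 of 100 *Nos*-rich DANs against 4.67% and 6.02%, and *Fer2* by 6.14% and 23 of 100 against 3.62% and 6.47%. The intervals overlapped for *Dh31* at ZT14 and for *Fer2* at ZT02. *Dh44*, whose subtype was called higher, was passed by no larger share of *Nos*-rich DANs, 6.14% at ZT02 and 2 of 100 at ZT14, against 8.10% and 7.07% of those with none. *AstC* did not separate them, at 29 of 114 and 20 of 100 cells against 20.2% and 20.9%, with overlapping intervals.

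The DANs of CEL-seq2, a plate method with other libraries and flies, had less *Nos*, 0.279 TP10K, with a UMI in 16.4% of cells. The *Dh44* subtype had 0.816 TP10K (76 UMIs in 70 cells) and was called, as no other subtype was in this fit (log2 1.95, SE 0.47, adjusted p = 0.0102 by edgeR, 2.36% of 4543 genes called higher). Without ZT02 or without ZT22 that call was lost (adjusted p = 0.0870 and 0.185 by edgeR). The *VGlut* subtype had 0.455 TP10K and a log2 difference of 1.43 (SE 0.39, adjusted p = 0.0618 by edgeR). It was called with stricter subtype marks, without the low-count filter and without ZT14 (adjusted p = 0.0359, 0.000493 and 0.0326 by edgeR). The *Ms* subtype had 0.0887 TP10K, 12 UMIs in 107 cells (log2 -1.72, adjusted p = 0.434 by edgeR). The *Dh31* subtype, called higher in 10X Chromium, had 0.102 TP10K here (log2 -1.53, adjusted p = 0.485 by edgeR), and the difference between methods was not tested.

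*Gycalpha99B*, the alpha subunit, was found in most cells of both classes. Its level was 2.18 and 1.93 TP10K in clock cells at ZT02 and ZT14 and 3.12 at both times in DANs, with a UMI in 75.05% and 71.6% of clock cells and in 77.1% and 81.9% of DANs. Clock cells were compared with DANs by edgeR on 1 sum per class and library, blocked by library. The log2 difference was -0.51 (SE 0.11, adjusted p = 0.0602 by edgeR), and 7.13% of 7747 genes were called lower in clock cells and 11% higher. Without the filter on low counts it was called (log2 -0.56, adjusted p = 0.0497 by edgeR, with a range of 0.0497 to 0.0831 over the alternatives).

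*Gycalpha99B* was low in *Pdf* neurons. This subtype had 35 UMIs in 44 cells at ZT02 (0.632 TP10K, 0.440 to 0.879) and 28 in 24 cells at ZT14 (0.847 TP10K, 0.563 to 1.22), while every other clock subtype was between 1.47 and 3.21 TP10K. These levels did not overlap with those of the other subtypes, although the intervals of the smallest subtypes did, and the log2 difference was -1.13 (SE 0.21, adjusted p = 0.00140 by edgeR, 4.15% of genes called lower). The neuron markers *elav*, *nSyb*, *brp* and *Syt1* summed to 33.6 TP10K in the *Pdf* subtype and 46.0 TP10K in all clock cells. Whether the *Gycalpha99B* difference goes beyond such a shift was not tested. No other clock subtype was called for *Gycalpha99B*. Among the DAN subtypes with cells in both libraries its levels lay between 2.65 and 3.85 TP10K, and no subtype was called. The largest difference there was 0.30 in the *AstC* subtype (SE 0.10, adjusted p = 0.0836 by edgeR, and 0.0473 with stricter subtype marks).

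*Gycbeta100B*, the beta subunit, separated the classes. Clock cells had 0.393 TP10K at ZT02 and 0.345 at ZT14, and DANs had 2.33 and 2.31. The log2 difference was -2.56 (SE 0.12, adjusted p = 0.0165 by edgeR, against 7.13% of genes called lower), and -2.65 without the clock cells of no mark, an alternative chosen after seeing the data (adjusted p = 0.00302 by edgeR). It was called under every alternative that gave a test (adjusted p = 6.02e-20 by DESeq2 to 0.0185 by edgeR), and within the ZT02 and ZT14 libraries alone, which allow no test, the log2 difference was -2.43 and -2.67. *Nos* was not called in this comparison (log2 0.43, SE 0.26, adjusted p = 0.308 by edgeR). In clock cells *Gycbeta100B* was at 16.9% and 14.9% of its level in DANs. By the same measure *ple*, the tyrosine hydroxylase gene, was at 0.850% and 1.15%. *Ddc*, dopa decarboxylase, another gene of the DAN list that serotonergic neurons use as well, was at 39.6% and 42.3%. In the *Dh44* clock subtype *ple* was at 2.68 TP10K, with a UMI in 42.6% of cells, against 0.618 TP10K in all clock cells. The part of free RNA in these levels was not tested.

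Within clock cells *Gycbeta100B* ranged from no UMI in the 43 cells of the *NPF* subtype at ZT02 to 0.978 TP10K in the *Dh31* subtype at ZT02, and no subtype was called. The *NPF* subtype came nearest (2 UMIs in 33 cells at ZT14, log2 -3.67, SE 1.03, adjusted p = 0.0584 by edgeR). It was called with lower subtype marks and without the filter on low counts (adjusted p = 0.0279 and 0.0132 by edgeR). The *NPF* subtype had *Gycalpha99B* at 3.06 and 2.90 TP10K, so this subtype had the alpha subunit with 2 UMIs of the beta subunit.

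Among DANs *Gycbeta100B* was higher in the *Ms* subtype, at 3.50 and 3.49 TP10K against 1.32 to 2.81 TP10K in the others with cells in both libraries (log2 0.86, SE 0.14, adjusted p = 6.15e-05 by edgeR, 9.58% of genes called higher). The 12 *NPF* DANs, found at ZT02 alone, had no *Gycbeta100B* UMI. The *Ms* subtype had next to no *Nos*. The *Fer2* subtype had 1.39 and 1.64 TP10K (log2 -0.55, SE 0.18, adjusted p = 0.0530 by edgeR) and was called lower under 4 alternatives (adjusted p = 0.00391 to 0.0463 by edgeR). In CEL-seq2 the *Ms* subtype had 1.06 TP10K against 0.840 in all DANs (log2 0.64, SE 0.31, adjusted p = 0.589 by edgeR), and no subtype was called for either subunit there.

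Both subunits are needed for an active enzyme, so their presence in the same cell was counted. Both were seen in 17.5% and 20.7% of clock cells at ZT02 and ZT14, in 52.3% and 60.8% of DANs and in 41.4% of CEL-seq2 DANs, and *Gycalpha99B* alone in 57.6% and 50.9%, 24.8% and 21.1%, and 41.0%. The median depth was 8300 and 10154 UMIs in clock cells and 6486 and 8465 in DANs, the deeper class being the clock cells. At 1000 UMIs per cell both were seen in 0.682% of clock cells and in 5.83% of DANs.

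**Figure D3:**
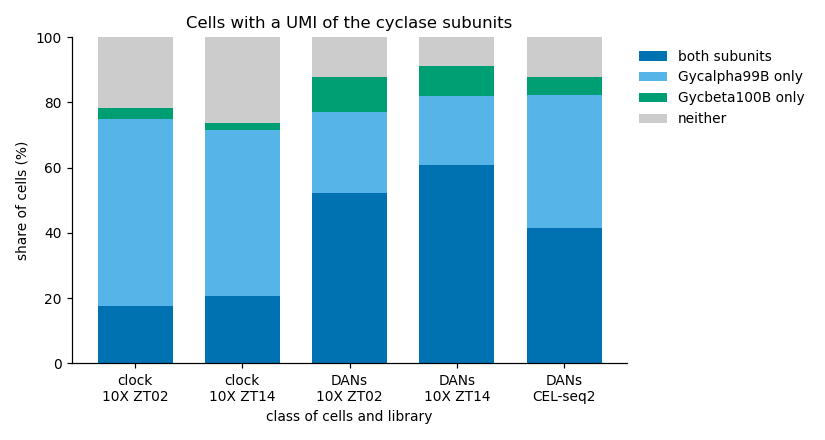
Share of cells (%) with a UMI of both cyclase subunits, of *Gycalpha99B* only, of *Gycbeta100B* only or of neither, in clock cells and DANs of each 10X Chromium library and in CEL-seq2 DANs. Both subunits are seen in 17.5% and 20.7% of clock cells and in 52.3% and 60.8% of DANs.

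DANs rich in *Nos* also had the cyclase. In DANs with at least 3 *Nos* UMIs *Gycbeta100B* was at 2.50 and 2.37 TP10K at ZT02 and ZT14, with intervals that overlapped those of DANs with none (2.33 and 2.35 TP10K). *Gycalpha99B* was at 2.49 (2.17 to 2.84) and 2.30 (1.98 to 2.67) TP10K in the *Nos*-rich DANs and at 3.18 (3.06 to 3.31) and 3.20 (3.06 to 3.35) in those with none, and these intervals did not overlap in either library. The *Nos*-rich DANs had a median depth of 6974.5 and 5159.5 UMIs and those with none 6800 and 9241, whose part in this was not tested. Clock cells went the other way for *Gycalpha99B*. It was at 2.53 (2.04 to 3.09) and 2.25 (1.96 to 2.57) TP10K in those with at least 3 *Nos* UMIs. In clock cells with none it was at 2.14 (1.99 to 2.31) and 1.76 (1.62 to 1.90) TP10K. These intervals overlapped at ZT02 and not at ZT14, and the part of depth was not tested. *Gycbeta100B* was at 0.652 and 0.456 TP10K in the *Nos*-rich clock cells and at 0.401 and 0.340 TP10K in those with none, with overlapping intervals.

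Time of day was tested in the CEL-seq2 DANs, with 1 sum per library and all 6 time points in 1 edgeR fit. The library titles carry a code that goes with a pair of times, so ZT14 was compared with ZT02, ZT22 with ZT06 and ZT18 with ZT10 within a code. *Gycalpha99B* at ZT10 was at 1.69, 1.23 and 1.55 TP10K in replicates 1 to 3, and at ZT18 it was at 1.61, 3.22, 2.97 and 3.75 TP10K in replicates 1 to 4. Of the 4 libraries at ZT18, 3 lay above all of ZT10 and replicate 1 lay within its range. The means were 1.49 ± 0.236 (SD, n = 3) and 2.89 ± 0.912 TP10K (SD, n = 4), and the log2 difference was 0.91 (SE 0.20, adjusted p = 0.00629 by edgeR, 4.78% of 5651 genes called higher). With 1 library left out in turn the call held in 22 of 23 fits and was lost without replicate 2 of ZT10 (log2 0.81, adjusted p = 0.0525 by edgeR).

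*Gycalpha99B* was at 2.58, 2.45, 1.796 and 1.59 TP10K in the ZT02 libraries and at 2.93, 3.31, 2.78 and 3.56 TP10K in those of ZT14. All ZT14 libraries lay above all of ZT02, but the difference was not called (log2 0.53, SE 0.18, adjusted p = 0.527 by edgeR), in a comparison that called 0.0177% of genes. At ZT06 and ZT22 the means were 2.33 ± 0.118 and 2.32 ± 0.381 TP10K (SD, n = 4 each), and the log2 difference was -0.02 (SE 0.18, adjusted p = 0.996 by edgeR). No gene was called between ZT22 and ZT06 (0% by edgeR, with 342 genes at an unadjusted p under 0.05 and 8 genes called by DESeq2). In the 10X Chromium DANs *Gycalpha99B* was at 3.12 TP10K at both ZT02 and ZT14.

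**Figure D4:**
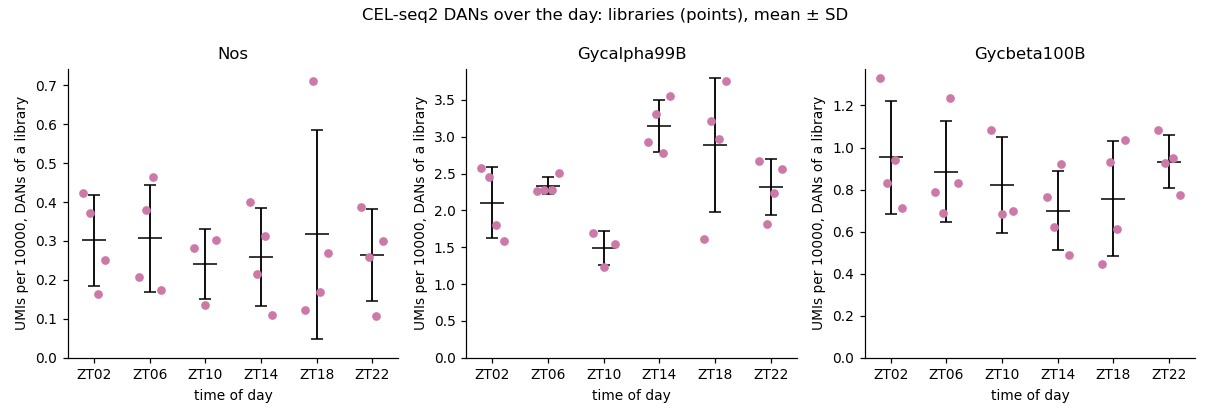
Levels of *Nos*, *Gycalpha99B* and *Gycbeta100B* in CEL-seq2 DANs at 6 times of day, in UMIs per 10000 of all DANs of a library. Points are libraries (n = 4, and 3 at ZT10) and bars are mean ± SD. *Gycalpha99B* runs from 1.49 TP10K at ZT10 to 3.15 TP10K at ZT14 by the means, with 1 library of ZT18 at 1.61 TP10K.

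*Nos* and *Gycbeta100B* showed no called difference between times in DANs. Mean *Nos* levels lay between 0.241 ± 0.0907 (ZT10, SD, n = 3) and 0.317 ± 0.269 TP10K (ZT18, SD, n = 4), and libraries of every time point overlapped. *Gycbeta100B* means lay between 0.700 ± 0.186 (ZT14) and 0.953 ± 0.269 TP10K (ZT02), with SD over n = 4 each, and those libraries overlapped as well. For *Nos* the log2 differences were -0.25 (SE 0.53) for ZT14 against ZT02, -0.23 (SE 0.50) for ZT22 against ZT06 and 0.35 (SE 0.52) for ZT18 against ZT10, with 45 to 125 *Nos* UMIs per time point. At this depth a *Nos* difference larger than these standard errors could also have been missed. The lack of a call does not show that *Nos* was constant. With a 24-hour cosine over all 23 libraries none of the 3 genes was called, where 0.952% of 4831 genes were (*Gycalpha99B* log2 peak to trough 0.55, adjusted p = 0.227 by edgeR).

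Other genes of nitric oxide and cGMP signalling were taken from a list of 31, of which 30 had a UMI in the 10X Chromium cells and 29 could be tested between clock cells and DANs. Of these, 3 were higher in clock cells and 4 lower, and the median log2 difference over the tested genes was 0.17. Over all genes 11% were called higher and 7.13% lower, so the count of higher genes was near the background. Without the clock cells of no mark, left out after seeing the data, 27 could be tested and 5 were higher and 6 lower (10.4% and 9.11% of all genes), with *Gyc32E*, *Gyc88E* and *CngB* added to the higher genes and *Cam* and *ftz-f1* to the lower ones. *CG34357*, a receptor-type guanylyl cyclase, was higher in clock cells (2.16 against 0.973 TP10K, log2 1.23, SE 0.22, adjusted p = 0.0463 by edgeR). *Fdh*, which breaks down nitrosoglutathione, was higher as well (log2 1.46, SE 0.22, adjusted p = 0.0366 by edgeR), but 230 of its 437 clock UMIs (52.6%) were in the cells of no mark, and without them the log2 difference was 0.73. *for*, a cGMP-dependent kinase, was called higher (log2 6.06, SE 0.95, adjusted p = 0.0388 by edgeR) with 90 UMIs in clock cells and 2 in DANs. Of the 90, 85 were in the clock cells of no mark, which were mixed by their markers. The kind of cell that held them was not tested.

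Genes that were lower in clock cells included the phosphodiesterases *Pde1c* and *Pde9*, enzymes that break down cyclic nucleotides. The other phosphodiesterases of the list were not called. *Pde6* was at 2.90 TP10K in clock cells and 3.69 in DANs. *Pde8* (2.02 and 1.44 TP10K) and *Pde11* (2.06 and 1.34 TP10K) had the higher level in clock cells. *Pde1c* was at 1.40 TP10K in clock cells and 4.51 in DANs (log2 -1.61, SE 0.10, adjusted p = 0.0202 by edgeR), and *Pde9* at 2.99 and 6.26 TP10K (log2 -0.97, SE 0.10, adjusted p = 0.0263 by edgeR). *Gyc89Db*, an atypical soluble cyclase, was at 0.135 and 0.488 TP10K (log2 -1.77, SE 0.16, adjusted p = 0.0232 by edgeR). *Dhpr*, which regenerates tetrahydrobiopterin, was at 1.81 and 3.99 TP10K (log2 -1.02, SE 0.09, adjusted p = 0.0240 by edgeR). *Cam*, encoding calmodulin, had a UMI in 99.1% of clock cells and 99.9% of DANs, and *Eip75B*, a nuclear receptor known to bind nitric oxide, in 95.9% and 93.5%. Without the clock cells of no mark *CG34357*, *Fdh*, *Pde1c*, *Pde9*, *Gyc89Db* and *Dhpr* were called again (adjusted p = 0.00772 to 0.0480 by edgeR), and *for* could not be tested. For ZT18 against ZT10 in DANs, 25 of the list were tested and 2 were lower at ZT18, where 3.82% of all genes were called lower, *Pde8* (log2 -0.80, adjusted p = 0.0412 by edgeR) and *Pde1c* (log2 -0.71, adjusted p = 0.0469 by edgeR).

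**Figure D5:**
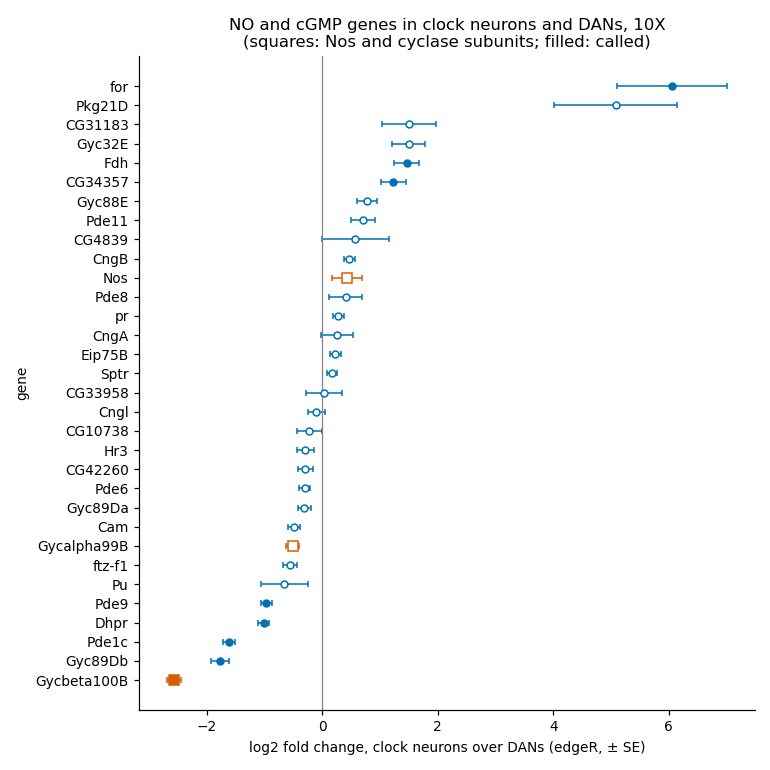
Log2 fold change of clock cells over DANs for the tested genes of the nitric oxide and cGMP list and for *Nos* and the cyclase subunits (squares), with bars of ± SE from edgeR and filled symbols where called. *Gycbeta100B* lies lowest at -2.56, and *for*, at 6.06, rests on cells of no subtype mark.

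In the *CNMa* clock subtype, 5 of 28 tested genes of the list were higher and 1 lower, where 4.4% of all genes were called higher and 1.51% lower. The gene with the smallest adjusted p was *Pu*, GTP cyclohydrolase I, which starts the synthesis of tetrahydrobiopterin, the cofactor of nitric oxide synthase and of the enzymes that make dopamine and serotonin. It was named after its values were seen. *Pu* was at 2.001 TP10K at ZT02 (1.63 to 2.44) and 9.28 TP10K at ZT14 (8.60 to 9.995) in the *CNMa* subtype, against 0.545 and 0.929 TP10K in clock cells outside the *CNMa* and *AstA* subtypes. It was higher in the *CNMa* subtype by 3.11 on the log2 scale (SE 0.23, adjusted p = 8.50e-07 by edgeR). Its ZT14 level was 4.64 times that at ZT02 (3.75 to 5.79), beside 4.73 for *Nos*, ranks 69 and 67 of 4708 genes. The ratio was 3.54 for *Pde6* (2.63 to 4.86, rank 101) and 2.92 for *Gycbeta100B* (1.26 to 7.86, 7 and 31 UMIs, rank 139). *Gyc89Da* and *Pde11* were at 0.756 and 0.869, with intervals that held 1. Both *Pu* and *Nos* had a UMI in 53.6% of the cells at ZT02 and in 86.3% at ZT14. Over cells the 2 levels were loosely related (Pearson's r = 0.27 over 56 cells at ZT02 and 0.16 over 73 cells at ZT14, both divided by the same depth).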

How the data were processed

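Single-cell UMI counts of 17087 genes were taken as deposited by the authors, who sequenced modified CEL-seq2 libraries (zUMIs) and 10X Chromium libraries (Cell Ranger 6.0.2, bcl2fastq 2.20), aligned to dm6, kept exonic UMIs, filtered cells on genes, UMIs and entropy, and removed doublets found with Scrublet from the 10X Chromium cells. The table had 9025 columns, of which 6700 were matched to samples by name and 2325 were not used. Spike-in rows (91) were left out.

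Levels are UMIs per 10000 (TP10K) over all cells of a group, with exact 95% intervals that cover counting error only. For tests, UMIs were summed per class or subtype and library (CEL-seq2 subtypes per time point, at least 5 cells), filtered with filterByExpr, normalized by TMM and tested across all genes with edgeR's quasi-likelihood test (edgeR 4.0.16, R 4.3.3), adjusted by Benjamini-Hochberg. Standard errors (SE) were derived from the F statistic and the log2 fold change. A 24-hour cosine was called from a peak to trough of 1.5. The edgeR fits alone were run on counts simulated in R at a fixed dispersion, and the outcome is not given here. Levels and ratios were computed with numpy 2.4.6 and pandas 2.3.3 in Python 3.11.15, intervals by scipy 1.17.1 and plots by matplotlib 3.10.9. CEL-seq2 libraries held 30 to 75 DANs.

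Alternatives were RLE normalization, DESeq2 1.42.0, no low-count filter, stricter class rules, lower and higher subtype minimums, thinning to 1000 UMIs, means over cells, all cells of a library, blocks for the title code and the replicate number, and leaving out a library or time point. The members and lists were chosen with earlier results of these data known. Named were the 3 genes everywhere, and genes of the pathway list where called between clock cells and DANs or where detected in the largest share of cells, with the 5 genes of most similar pattern for each. Gene positions are from Ensembl 115 (BDGP6.54). Some genes have separate rows in the 2 methods because their names differ.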

Additional observations from a re-analysis of the deposited data

Results flagged for a closer look

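Between the 10X Chromium libraries *Nos* went in opposite directions in clock subtypes, and that difference was not tested, since there was 1 library per time. The ZT14 to ZT02 ratio was 4.73 in the *CNMa* subtype, 5.46 in the *Dh44* subtype (4 and 34 UMIs, 20 of them in 1 cell) and 6.70 in the *Pdf* subtype (2 and 8 UMIs). It was 0.639 in the *AstA* subtype and 0.110 in the *Dh31* subtype, where 2 cells at ZT02 held most UMIs.

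The 1962 cells of the 10X Chromium libraries in neither class, used in no comparison, had *Nos* at 1.62 TP10K, *Gycalpha99B* at 2.41 TP10K and *Gycbeta100B* at 1.49 TP10K. A *Nos* UMI was seen in 15.2% of them, a smaller share than in DANs (21.9%), at a higher level than in DANs (0.986 TP10K).

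In CEL-seq2 DANs 1 library of ZT06 had *Gycalpha99B* at 2.51 TP10K, apart from the other 3 (2.26 to 2.28 TP10K) by 0.923 of the range of the group. The limit that picked this library is one that chance passes in about 1 of 20 groups, and 15 groups were looked at.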

How the results depend on the processing

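Of the fits of single genes under alternatives other than leaving out a library, 145 kept their direction and side of the threshold, 14 were called only there, 5 lost the call and 1 reversed, *Nos* for ZT14 against ZT02 in all CEL-seq2 cells (log2 0.0388). Without the low-count filter *Gycalpha99B* was called between clock cells and DANs (log2 -0.56). For ZT14 over ZT02 in 10X Chromium, thinning gave 1.003 for *Gycalpha99B* in clock cells, and for *Nos* 0.452 in *AstA* and 0.348 in *Dh31* clock cells, 1.32 in *Dh31* DANs and 0.795 in *Fer2* DANs. Means over cells gave 2.53 for *Nos* and 1.10 for *Gycbeta100B* in clock cells and 1.16 for *Nos* in *AstC* DANs. A peptide minimum of 5 TP10K, chosen after seeing the data, gave 0 for *Nos* in *Dh31* clock cells. The cause of these shifts was not tested.

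DESeq2 called 129 genes for the cosine (46 by edgeR), 6 for ZT14 against ZT02 and 8 for ZT22 against ZT06. Without the low-count filter these were 282, 53 and 78 genes, and 945 pairs of a gene and a CEL-seq2 subtype (398 with it). A title code block left 1 cosine gene, all cells of a library gave 12 genes for ZT22 against ZT06, and for CEL-seq2 subtypes a higher minimum gave 765 pairs and leaving out ZT02, ZT06 or ZT14 gave 210, 207 and 240. Leaving out 1 library in turn gave 13 to 56 cosine genes (13 without replicate 3 of ZT18), 1 to 3 for ZT14 against ZT02, 0 for ZT22 against ZT06 and 214 (without replicate 2 of ZT10) to 892 (without replicate 1 of ZT18) for ZT18 against ZT10. The log2 ranges were 0.81 to 1.08 for *Gycalpha99B*, -0.269 to 0.0298 for *Gycbeta100B* and -0.37 to 0.61 for *Nos* (ZT18 against ZT10), and -0.0717 to 0.0733, -0.0165 to 0.271 and -0.465 to 0.0524 (ZT22 against ZT06), and for ZT14 against ZT02 0.43 to 0.64, -0.67 to -0.28 and -0.487 to -0.00518. With the replicate number as a replicate block 64 genes were called for the cosine. Same-numbered libraries did not deviate together (r = -0.05 to 0.09 over 8 pairs), so the numbers were not used as pairs. DANs could not be compared with other TH-GAL4 cells in CEL-seq2, which held 6 cells without *Vmat* and *DAT* UMIs.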

Other observations

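Over the 22 clock and DAN subtypes of 10X Chromium with cells in both libraries, the genes whose levels followed *Nos* most closely, out of 2811, were *CG43689* (Pearson's r = 0.815), *gogo* (0.679), *CG42540* (0.626), *CG11638* (0.614) and *Rim* (0.610). For *Gycalpha99B* they were *ND-49* (0.942), *ND-23* (0.939), *Atpalpha* (0.938), *Drep2* (0.926) and *ND-20* (0.915), 3 of them subunits of mitochondrial complex I. For *Gycbeta100B* they were *Snap25* (0.907), *d4* (0.906), *Ggamma1* (0.904), *CG18766* (0.894) and *ND-13B* (0.890). The subunits correlated with each other at 0.629, and *Nos* with them at 0.266 and 0.107. Subtypes share libraries and depth, so these values are descriptions.

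Other genes of the list that were higher in the *CNMa* clock subtype, named after their values were seen, were *Gyc89Db* (log2 3.34, adjusted p = 0.0130 by edgeR), *Gyc89Da* (log2 1.98, adjusted p = 0.0290 by edgeR), *Pde1c* (log2 1.49, adjusted p = 0.00329 by edgeR) and *Pde11* (log2 1.42, adjusted p = 0.0302 by edgeR), and *Pde8* was lower (log2 -1.27, adjusted p = 0.0443 by edgeR).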
